A study of Mus musculus with 18 samples.

Results

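The comparison of A10-FMT with Con-FMT asked how the liver transcriptome of diabetic mice differed between recipients of 2 kinds of gut content. Its members were the 3 A10-FMT and 3 Con-FMT libraries, 6 of the 18 liver libraries of the series, chosen by their treatment labels. All 6 came from livers of male ICR mice aged 10 weeks. Every recipient was put on a high-fat diet at 3 weeks of age and injected with streptozotocin (STZ, a toxin of pancreatic beta cells) at 85 mg per kg at 5 weeks. This treatment is the type 2 diabetes model of the study and is named HS. From 5 to 7 weeks of age the recipients were inoculated daily, for 2 weeks, by mouth with small-intestinal content from male ICR donors without HS treatment. A10-FMT donors had been dosed with alginate oligosaccharide (AOS, a short polymer made from brown algae) at 10 mg per kg for 3 weeks, and Con-FMT donors had been given water. The donor material was pooled, so that the recipients of a group shared 1 source, and no step that cleared the recipients' own gut bacteria is described. The labels number the libraries 1 to 3 but do not say how many of the 30 mice of a treatment each one holds. The p-values below therefore measure the spread between libraries only. For the comparison of recipients that spread is pooled over 12 libraries, these 6 and those of the untransplanted Con and HS groups.

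The liver receives blood directly from the intestine, so bacterial products and absorbed nutrients reach hepatocytes first. Hepatocytes secrete most plasma proteins, and their endoplasmic reticulum (ER) adjusts its chaperones to that load through the unfolded protein response. In this response the sensors IRE1, PERK and ATF6 act on XBP1, ATF4 and ATF6 itself, transcription factors that raise chaperone and degradation genes. Hepatocytes also answer interleukin 6 with acute-phase proteins, cortisol-like steroids through the glucocorticoid receptor, metals and stress with metallothioneins, and insulin or fasting with lipogenic or gluconeogenic genes.

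Gene expression was given by the authors as RPKM, reads scaled to transcript length and to library size, for 19057 genes. Relative depth ran from 0.984 to 1.02 over the 6 libraries. Hepatocyte markers were abundant in all of them, with a summed level of 40900 to 55700 RPKM. The library Con-FMT 3 stood apart, because 29 pancreatic acinar genes summed to 28200 RPKM in it (4.03% of its total) and to 14.5 to 50.8 RPKM in the other 17 libraries of the series. Amy2a5, pancreatic amylase, was at 4708.61 RPKM in Con-FMT 3. Con-FMT 1 had the highest erythroid marker sum, at 5740 RPKM against 1230 to 2630 RPKM in the other 5. The main counts below are therefore also given without Con-FMT 3.

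In A10-FMT livers 23 of 25 tested genes of ER chaperones and the unfolded protein response were called lower than in Con-FMT livers. So were 14 of 20 genes for heat shock proteins, mostly cytosolic, and 8 of 17 p53 targets. In the acute-phase list, which also holds the regulators Stat3 and Socs3, 15 of 25 were called lower. Mt1 and Mt2, the metallothioneins, were lower as well. In these 4 lists 0 genes were called higher. Of 10159 genes that averaged 1 RPKM or more, 1401 (13.8%) were called at an adjusted p under 0.05 by limma on log2(RPKM + 1), with Benjamini-Hochberg adjustment. A10-FMT was the higher group in 493 (4.85%) and the lower group in 908 (8.94%). The differences on this scale are named log2 differences, A10-FMT minus Con-FMT, and understate the change of genes near 1 RPKM. The median log2 difference was 0.56 for genes called higher and -0.52 for genes called lower, and 37 and 131 of them reached 1. For 3205 genes (31.5%) the 3 libraries of a group did not overlap with those of the other group. An exact permutation test of 3 libraries against 3 cannot go below p = 0.1, the value of each such gene.

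Without Con-FMT 3, 1153 genes were called, 457 higher and 696 lower, and 958 genes kept their call and sign. The split between directions depended on the scaling. The median over all genes tested was -0.03, and with each library scaled to its own median 936 genes were higher and 688 lower, so that the share of calls that were higher moved from 35.2% to 57.6%. Scaling to the RPKM sum without pancreatic genes moved the median to -0.13 and gave 208 higher and 1096 lower. Median scaling left 1175 of the 1401 genes with their call and sign. Leaving out A10-FMT 1 gave 934 called genes, leaving out A10-FMT 2 gave 608, and leaving out Con-FMT 1 gave 885.

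**Figure D1:**
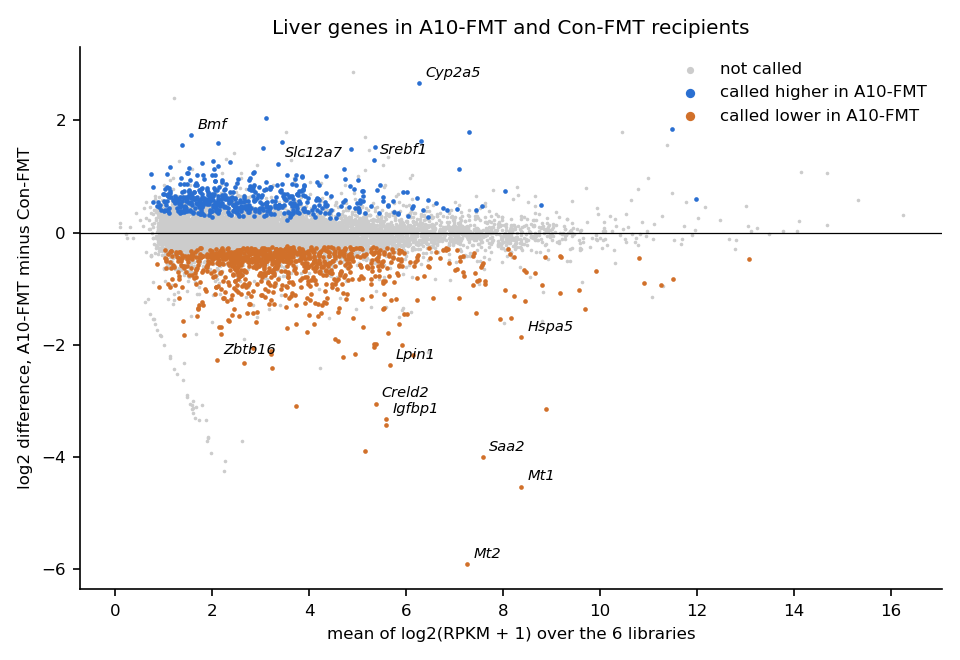
Log2 difference (A10-FMT minus Con-FMT, log2(RPKM + 1) scale) of each of the 10159 genes tested against its mean level on the same scale, with called genes (493 above 0, 908 below 0) in colour and lead genes named. Mt2 and Mt1 lie farthest below 0, and the grey diagonal at the lower left holds pancreatic genes that were high in Con-FMT 3 alone.

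**Figure D2:**
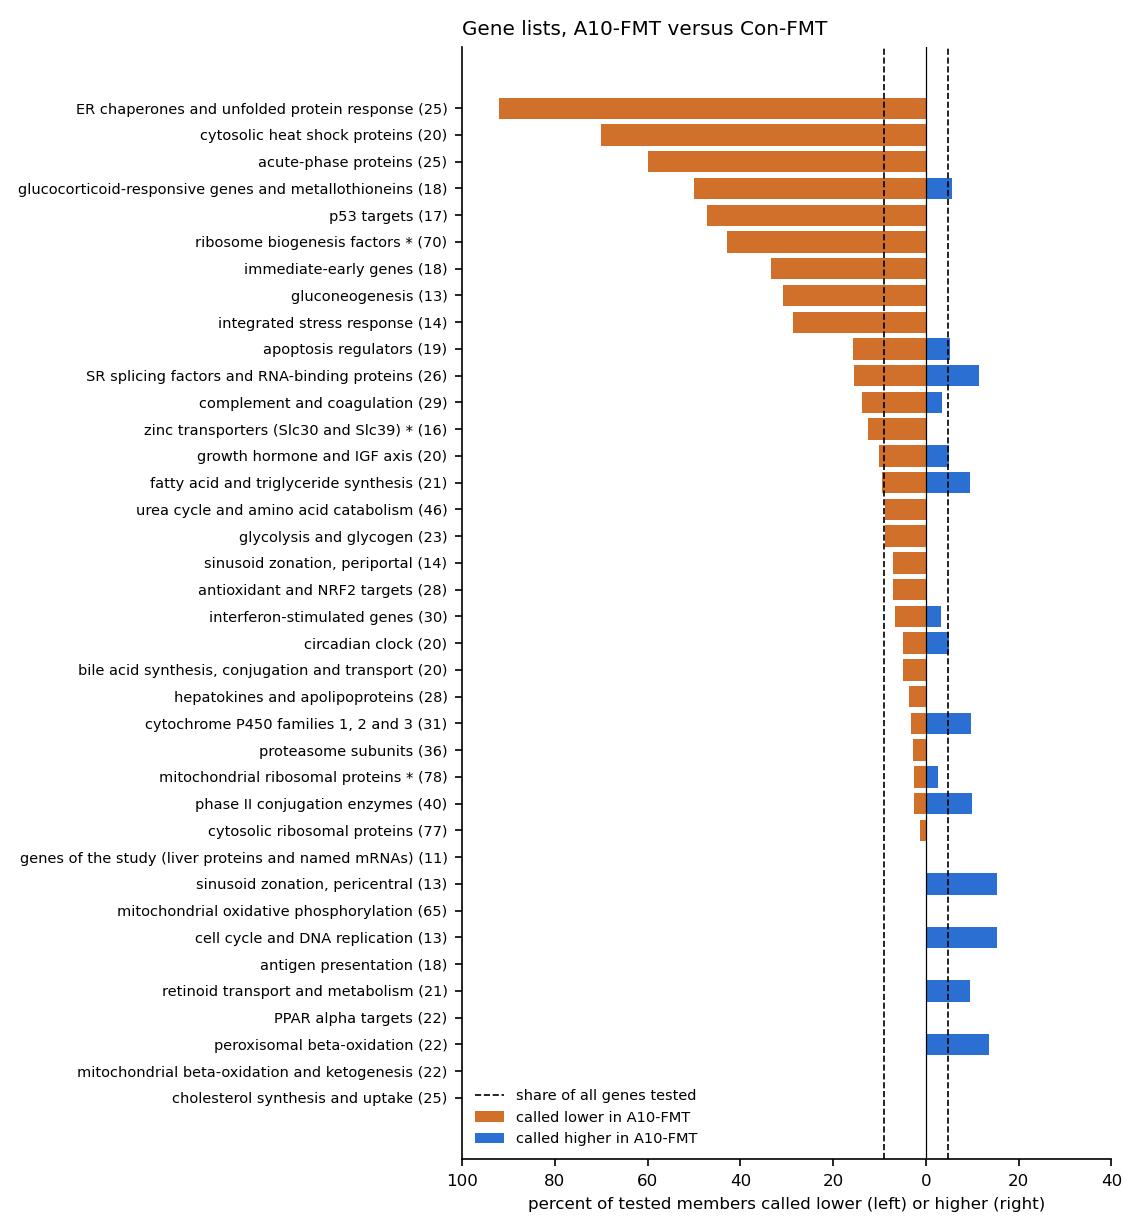
For each gene list, the share of its tested members called lower (left) and higher (right) in A10-FMT, with the number tested in parentheses, an asterisk for lists added after values were seen, and dashed lines at the shares of all genes (8.94% and 4.85%). The list of ER chaperones and the unfolded protein response has the highest share of lower calls, 23 of 25. No list reaches a comparable share of higher calls.

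ER chaperones and the unfolded protein response were the list with the most complete difference. Of 25 members tested 23 were called lower and 0 higher, with a median log2 difference of -0.91 beside -0.03 over all genes. All 25 were non-overlapping between the groups, against 31.5% of all genes. Without Con-FMT 3, 21 were called lower, and under median scaling 20. Leaving out any 1 library left 18 to 22 called. In bulk liver, fewer cells of a type and less RNA per cell cannot be told apart.

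Promoter sequences are shown for 3 of these genes, because the ER stress response element, the sequence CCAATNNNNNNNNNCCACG that ATF6 and XBP1 bind together with NF-Y, is a letter pattern shared by part of the list. The windows are the 250 bases before the annotated start in RefSeq (GRCm38.p6), written 5′ to 3′ on the strand of the gene, with the match in capitals. In Hspa5 (chr2:34771840-34772089, plus strand) and Syvn1 (chr19:6046326-6046575, plus strand) the match is on the strand of the gene, and in Creld2 (chr15:88819396-88819645, plus strand) it is on the opposite strand, so that its reverse complement is printed.
Hspa5: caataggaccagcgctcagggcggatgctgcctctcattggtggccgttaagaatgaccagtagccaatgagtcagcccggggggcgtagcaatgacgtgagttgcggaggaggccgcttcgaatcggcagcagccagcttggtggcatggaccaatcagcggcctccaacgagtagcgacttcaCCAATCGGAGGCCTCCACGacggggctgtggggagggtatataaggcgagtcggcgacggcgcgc
Creld2: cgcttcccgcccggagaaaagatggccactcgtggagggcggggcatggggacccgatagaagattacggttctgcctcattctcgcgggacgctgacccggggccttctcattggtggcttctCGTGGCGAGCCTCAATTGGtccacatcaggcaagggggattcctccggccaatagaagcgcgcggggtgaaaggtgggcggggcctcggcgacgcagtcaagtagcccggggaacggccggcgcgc
Syvn1: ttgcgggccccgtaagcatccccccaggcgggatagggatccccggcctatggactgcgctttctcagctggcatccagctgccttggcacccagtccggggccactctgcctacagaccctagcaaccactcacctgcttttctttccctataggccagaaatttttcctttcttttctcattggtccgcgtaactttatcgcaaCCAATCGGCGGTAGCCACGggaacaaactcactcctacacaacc
Searched on both strands, the pattern was in 37 of 32851 windows of all genes (0.113%), which belong to 35 of 27025 genes (0.13%). In the ER list 9 of the 21 genes with a window held it (42.9%), namely Hspa5, Hsp90b1, Calr, Canx, Pdia6, Dnajc3, Creld2, Syvn1 and Derl3. All 9 were called lower, with a median log2 difference of -1.14. Of the 12 without a match 11 were called lower, with a median of -0.89, so members with and without the letters were both lower. Outside the ER list 26 genes held the pattern, and 6 of them were tested. Of these 6, 1 was called lower and 0 higher, with a median of -0.28. A match is a string of letters only, and binding was not measured.

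Hspa5 (chromosome 2, GRCm38 positions 34771970 to 34777547) encodes BiP, the main ER chaperone, which also holds the sensors of the response inactive. It was at 168.43, 122.64 and 248.64 RPKM in A10-FMT and at 798.17, 551.69 and 578.90 RPKM in Con-FMT. The groups did not overlap, and the log2 difference was -1.87 (SE 0.30, limma adjusted p = 0.00309), a 3.57-fold lower mean. Hsp90b1, the ER member of the HSP90 family, had a log2 difference of -1.14 (limma adjusted p = 0.00367). Calr and Canx, the lectin chaperones that retain unfinished glycoproteins, were lower by less, at -0.72 (limma adjusted p = 0.0052) and -0.52 (limma adjusted p = 0.00996). Pdia4 and Pdia6, which form disulfide bonds, were at -1.21 and -0.84. These genes and those in the next sentences other than Creld2, Sdf2l1, Syvn1 and Ficd were named after their values were seen.

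Creld2 (chromosome 15, 88819646 to 88826683), a secreted ER protein with disulfide isomerase activity, had the largest difference of the list. It was at 12.06, 8.90 and 22.03 RPKM in A10-FMT and at 164.17, 106.24 and 93.55 RPKM in Con-FMT. The lowest Con-FMT library was above the highest A10-FMT library, and the log2 difference was -3.05 (SE 0.39, limma adjusted p = 0.00125). Sdf2l1, a cofactor of BiP, was at -2.22 (limma adjusted p = 0.00147). Syvn1, the ubiquitin ligase of ER-associated degradation, was at 17.78, 14.58 and 25.34 RPKM against 90.64, 82.46 and 70.25 RPKM. Its groups did not overlap either, with a log2 difference of -2.05 (limma adjusted p = 0.0011). Dnajb9, a co-chaperone of BiP, was at 20.12 to 37.99 RPKM in A10-FMT and 107.84 to 123.11 RPKM in Con-FMT (limma adjusted p = 0.00102). Herpud1, a degradation factor, and Hyou1, an exchange factor of BiP, were at -1.52 and -1.99. Ficd, which modifies BiP, was low in all 6 libraries but differed evenly, at 2.46 to 3.15 RPKM in A10-FMT and 6.63 to 6.78 RPKM in Con-FMT (limma adjusted p = 0.000439).

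Some calls of the list were less stable, and 2 members were not called. Xbp1, whose splicing is the activating step of IRE1 signalling, was at -0.46 (limma adjusted p = 0.0308), and its adjusted p was 0.124 without A10-FMT 2, 0.0596 without Con-FMT 1 and 0.0898 without Con-FMT 3. Gene-level RPKM does not separate spliced from unspliced Xbp1. Derl3 was called lower (log2 difference -1.27, limma adjusted p = 0.0232) but not without A10-FMT 2 (0.0568), A10-FMT 3 (0.0715) or Con-FMT 2 (0.076). Derl2 (limma adjusted p = 0.204) and Sec61a1 (0.0504) were not called.

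**Figure D3:**
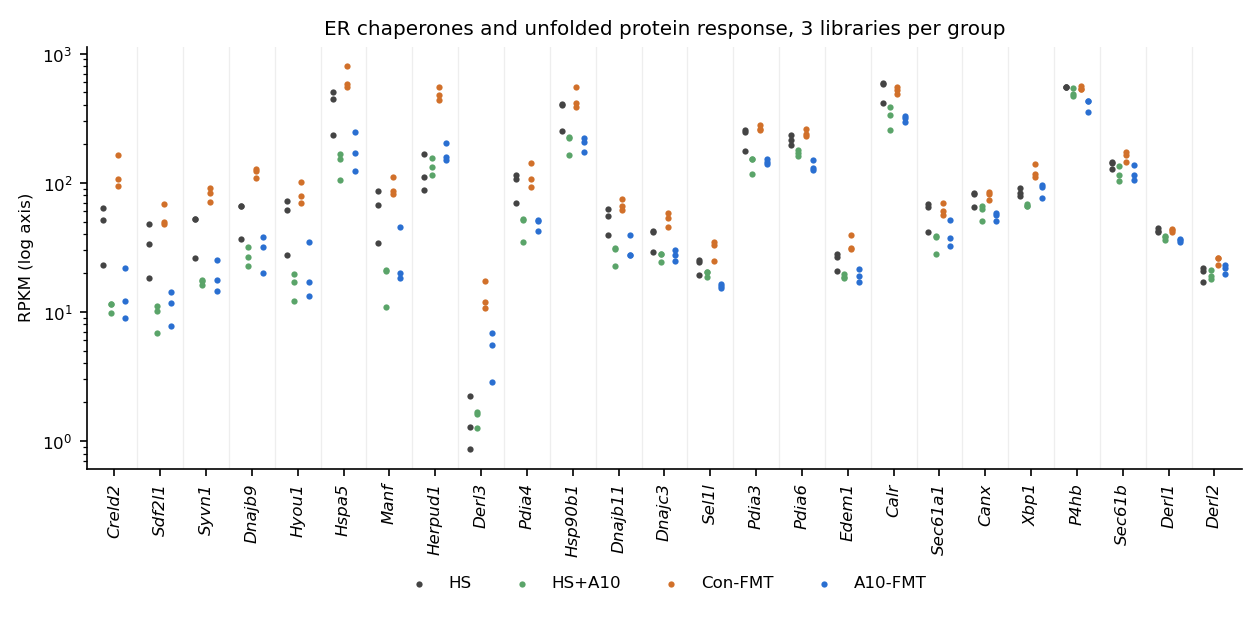
Level (RPKM, log axis) of the 25 ER chaperone and unfolded protein response genes in each of the 3 HS, HS+A10, Con-FMT and A10-FMT libraries, 1 point a library, ordered by the A10-FMT minus Con-FMT difference. The A10-FMT points lie below the Con-FMT points in all 25 genes, by most in Creld2 and by least in Derl2.

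The PERK branch and its ATF4 targets were more mixed. In the integrated stress response list 4 of 14 members tested were called lower and 0 higher (median -0.53), and 2 to 6 with 1 library left out (2 without A10-FMT 2). Gdf15, a stress hormone that is also a p53 target, was at 2.12 to 3.16 RPKM in A10-FMT and 9.92 to 20.78 RPKM in Con-FMT (log2 difference -2.06, limma adjusted p = 0.00148). Chac1, which degrades glutathione, was at -1.43 (limma adjusted p = 0.0146) and at an adjusted p of 0.0519 without A10-FMT 2. Atf4 mRNA itself was at -0.04 (limma adjusted p = 0.906) and Ddit3, encoding CHOP, overlapped between groups (-1.12, limma adjusted p = 0.0804). Atf4 and Ddit3 were named after their values were seen.

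The list of cytosolic heat shock proteins, the chaperones of the cytoplasm and nucleus, had 14 of 20 members tested called lower and 0 higher. It also held Hspd1 and Hspe1, chaperonins of mitochondria named after their values were seen, and both were among the 14. The median log2 difference was -0.88, and 17 of 20 did not overlap. Hspa4l, an exchange factor of HSP70, was at 2.13, 2.16 and 3.27 RPKM in A10-FMT and 9.11, 7.79 and 9.50 RPKM in Con-FMT. The groups did not overlap (log2 difference -1.49, SE 0.23, limma adjusted p = 0.00266). Hspa8, the constitutive HSP70, named after its values were seen, was at 455.75, 415.97 and 717.95 RPKM against 1417.60, 1328.08 and 1263.06 RPKM. It was called (log2 difference -1.37, limma adjusted p = 0.022), but its adjusted p rose to 0.0689 without A10-FMT 1, 0.0869 without A10-FMT 2, 0.0607 without Con-FMT 1 and 0.0531 without Con-FMT 2.

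A10-FMT 3 was the high library of its group for this list. Hsph1, the HSP110 of the cytosol, was at 12.11, 12.94 and 45.00 RPKM in A10-FMT and at 85.18, 84.91 and 69.63 RPKM in Con-FMT. Hsph1 (log2 difference -1.99, limma adjusted p = 0.0422) and Bag3, a partner of HSP70 in autophagy (-1.53, 0.0386), were called when A10-FMT 3 was left out and lost the call when any other of the 6 libraries was left out (up to 0.145 and 0.136). The inducible Hspa1a, whose reads can be split with Hspa1b, was at 55.20 RPKM in A10-FMT 3 and at 12.58 and 11.99 RPKM in the other two. It did not pass the test (-0.31, limma adjusted p = 0.845). The number of list members called was 6, 4 and 16 without A10-FMT 1, 2 and 3, and 6, 9 and 9 without Con-FMT 1, 2 and 3.

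Metallothioneins showed the largest differences of the comparison. They bind zinc and copper and are raised by metals, glucocorticoids and interleukin 6. Mt2 (chromosome 8, 94172664 to 94173568) was at 18.61, 25.44 and 13.82 RPKM in A10-FMT and at 1598.73, 928.01 and 1152.24 RPKM in Con-FMT. The groups were far apart, with a log2 difference of -5.92 (SE 0.72, limma adjusted p = 0.00107) and a 63.6-fold lower mean. The neighbouring Mt1 (chromosome 8, 94179082 to 94180327) was at 75.78, 67.81 and 60.89 RPKM against 1891.82, 1453.88 and 1453.84 RPKM. It too did not overlap, at -4.53 (SE 0.71, limma adjusted p = 0.00309) and 23.5-fold. The transcripts of Mt1 and Mt2 are alike, so the division of reads between them is uncertain. Both stayed called without any 1 library.

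The Mt2 window is printed because it holds 3 matches to the core of the metal response element bound by MTF1, searched as TGCACNC or TGCGCNC on both strands (chr8:94172368-94172617, plus strand, RefSeq GRCm38.p6, matches in capitals).
Mt2: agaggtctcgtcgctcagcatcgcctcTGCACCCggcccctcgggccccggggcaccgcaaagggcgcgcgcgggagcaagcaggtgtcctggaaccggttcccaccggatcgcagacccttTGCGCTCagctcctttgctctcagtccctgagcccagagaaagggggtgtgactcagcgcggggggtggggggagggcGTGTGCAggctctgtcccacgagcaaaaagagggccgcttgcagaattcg
The Mt1 window (chr8:94178839-94179088) held 1 match. Each window follows the RefSeq start, and the Mt2 window ends before the gene start given above. Bases past the end of a window were not searched, so the counts may miss elements of either gene. The core is short and was in 21.4% of all windows. In the list of the 16 zinc transporters tested, added after values were seen, 2 were called lower (12.5%, beside 8.94% of all genes). The list median was -0.11, and 2 of the 16 did not overlap between the groups, against 31.5% of all genes. Slc39a14, an importer of zinc and iron, was at 32.21 to 38.94 RPKM in A10-FMT and 69.75 to 103.83 RPKM in Con-FMT (log2 difference -1.18, limma adjusted p = 0.00107). Slc30a5, which loads zinc into the secretory pathway, was at -0.98 (limma adjusted p = 0.00112). The MTF1 target Slc30a1, named after its values were seen, overlapped between the groups (0.19, limma adjusted p = 0.519). Without Con-FMT 3, its highest Con-FMT library, it was called higher in A10-FMT (0.44, limma adjusted p = 0.025).

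Among the other glucocorticoid-responsive genes most differences were also below 0. The list with metallothioneins had 9 of 18 members called lower and 1 higher (median -0.98), and 4 of the 18 log2 differences were above 0. In it 13 did not overlap, and 7 to 8 were called with 1 library left out. Zbtb16, a zinc finger transcription factor on chromosome 9 (48654297 to 48836222), was at 0.65, 1.36 and 0.84 RPKM in A10-FMT and 9.24, 6.75 and 9.41 RPKM in Con-FMT. The groups did not overlap, and the adjusted p was among the smallest of all genes (log2 difference -2.28, SE 0.16, limma adjusted p = 5.91e-05, 8.91-fold). Fkbp5, a co-chaperone that restrains the glucocorticoid receptor, was at 5.94, 6.25 and 4.25 RPKM against 23.97, 14.72 and 22.41 RPKM. It also did not overlap (-1.71, SE 0.18, limma adjusted p = 0.000587).

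Other members of this list, named after their values were seen, differed by less. Klf9, a transcription factor, was called lower (-0.36, limma adjusted p = 0.037), a call kept without A10-FMT 1 and lost without any other of the 6 libraries (up to 0.138). Tsc22d3, encoding GILZ, overlapped between the groups (log2 difference 0.18, limma adjusted p = 0.743), and Per1 did not overlap but was not called (-0.94, limma adjusted p = 0.0965). Nr3c1, the receptor itself, was slightly higher in A10-FMT (0.35, limma adjusted p = 0.0164), with adjusted p of 0.0534, 0.0645 and 0.056 without A10-FMT 1, A10-FMT 2 or Con-FMT 1.

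**Figure D4:**
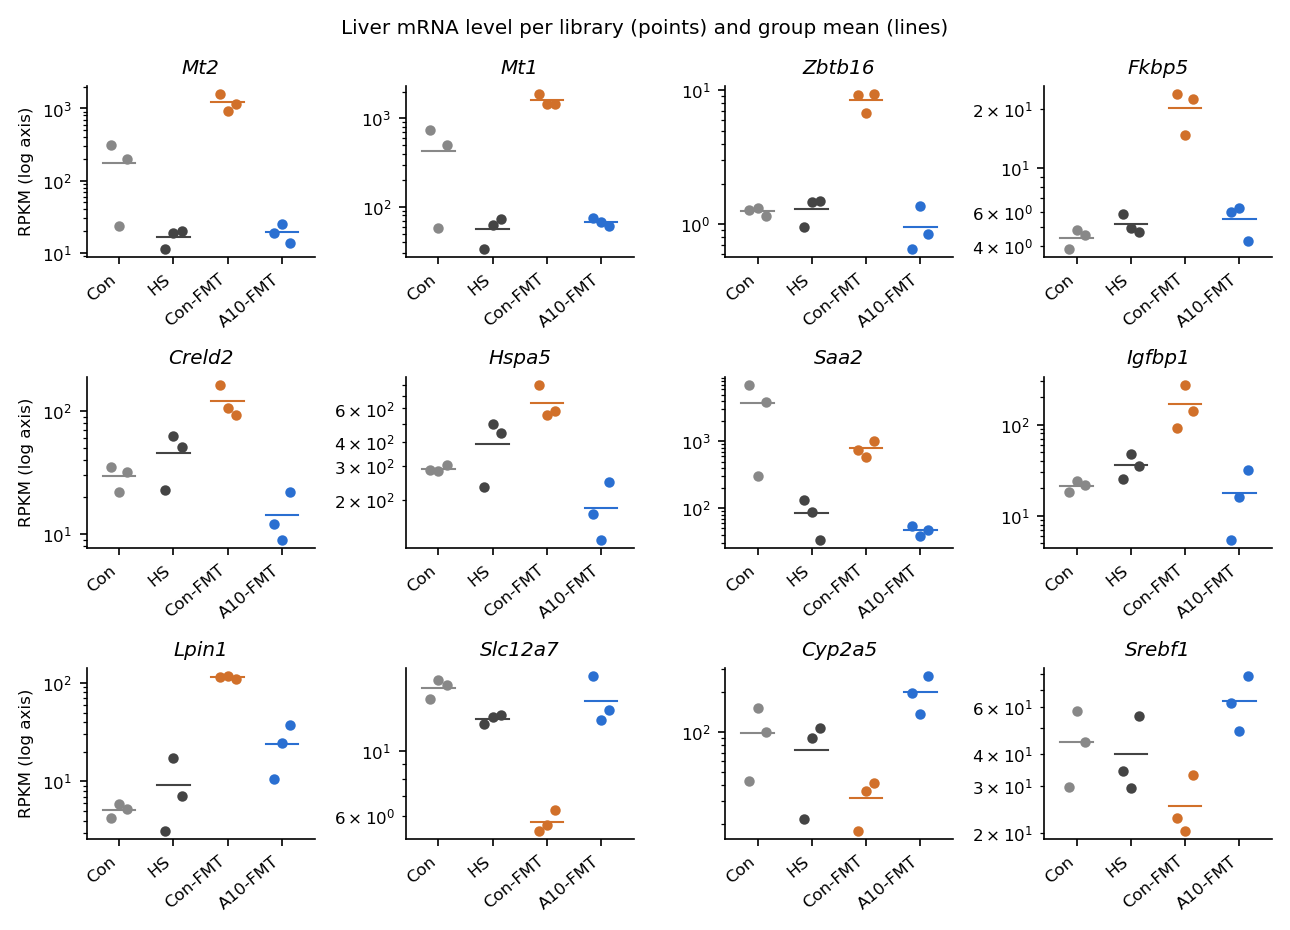
Level (RPKM, log axis) of 12 genes named in the text in the 3 libraries each of Con, HS, Con-FMT and A10-FMT, 1 point a library, with the group mean as a line. In Mt2, Mt1, Zbtb16, Fkbp5 and Lpin1 the Con-FMT points stand above those of all other groups, while the A10-FMT points of Slc12a7, Cyp2a5 and Srebf1 lie above the Con-FMT points.

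The list of acute-phase proteins, which hepatocytes secrete in inflammation, also held Stat3 and Socs3, which act inside the cell. Of its 25 members tested 15 were called lower, Stat3 and Socs3 among them, and 0 higher (median log2 difference -0.97, 22 without overlap). Saa2, a serum amyloid A, was at 54.92, 38.87 and 48.08 RPKM in A10-FMT and at 750.31, 591.37 and 1020.57 RPKM in Con-FMT. There was no overlap between the groups (-4.01, SE 0.92, limma adjusted p = 0.0166), and the adjusted p without A10-FMT 2 was 0.0605. The near copy Saa1 (-3.14, limma adjusted p = 0.0449) shares reads with Saa2 and lost its call without any 1 of the 6 libraries (0.0747 to 0.12). Lcn2, an iron-siderophore trap, was at 424.80 RPKM in Con-FMT 2 and at 95.77 and 95.16 RPKM in the other two, against 10.30 to 20.81 RPKM in A10-FMT. It was called (-3.43, limma adjusted p = 0.0447) and lost its call without any 1 of the 6 libraries (0.0604 to 0.137).

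The fibrinogen chains, the substrate of clotting, differed by less and more evenly. Fga was at 1570.54, 1487.92 and 1204.92 RPKM in A10-FMT and 2530.66, 2402.72 and 3016.55 RPKM in Con-FMT, and the groups did not overlap. The log2 differences of Fga, Fgb and Fgg were -0.90, -0.82 and -0.94 (limma adjusted p = 0.007, 0.0142 and 0.00487), and each stayed called without any 1 library. Stat3, the transcription factor of interleukin 6 signalling (-1.08, limma adjusted p = 0.00173), and its inhibitor Socs3 (-2.11, limma adjusted p = 0.0073) were regulators counted among the lower list members. Hp, haptoglobin, did not overlap but was not called (-1.15, limma adjusted p = 0.0704), and Hamp, hepcidin, overlapped (0.46, limma adjusted p = 0.331). These 7 genes were named after their values were seen. The number of list members called fell to 9, 7 and 9 without A10-FMT 1, 2 and 3 and to 13, 9 and 8 without Con-FMT 1, 2 and 3. Under median scaling 10 were called lower.

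Neutrophil and macrophage markers had lower sums in A10-FMT as well, and lymphocyte markers did not (3.89 to 5.01 RPKM in A10-FMT, 3.13 to 9.18 RPKM in Con-FMT). The summed level of 10 neutrophil markers was 1.48 to 2.68 RPKM in A10-FMT and 5.61 to 10.2 RPKM in Con-FMT, and no marker was at 0 in all 6 libraries. Only 2 of them were tested, of which 1 was called lower. The sum of 14 macrophage and Kupffer cell markers was 116 to 147 RPKM against 153 to 264 RPKM, with 0 of 13 tested called (median -0.41). Their part in the acute-phase result was not tested.

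Targets of p53, the transcription factor of DNA damage and other stress, were lower in 8 of 17 members tested and higher in 0 (median -0.54), and 6 were lower without Con-FMT 3. Cdkn1a (chromosome 17, 29090976 to 29100727), the cell cycle inhibitor p21, was at 3.82, 2.89 and 3.57 RPKM in A10-FMT and 30.44, 17.30 and 12.31 RPKM in Con-FMT. The groups did not overlap (log2 difference -2.16, SE 0.27, limma adjusted p = 0.00116). Btg2, an antiproliferative p53 target that is also an immediate-early gene, was at -2.42 (limma adjusted p = 0.00349). Mdm2, the classical feedback inhibitor of p53, was not called (-0.30, limma adjusted p = 0.061), nor was Bax, the pore-forming effector of apoptosis (-0.45, limma adjusted p = 0.0889). Mdm2 was named after its values were seen.

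Immediate-early genes, which respond within minutes to growth factors, stress or handling, were lower in 6 of 18 members tested (median -0.65), and in 7 without Con-FMT 3. Junb (-2.17, limma adjusted p = 0.00934) and Fosl2 (-1.24, limma adjusted p = 0.000721), subunits of AP-1, did not overlap between the groups. Egr1, named after its values were seen, was at 79.41 RPKM in A10-FMT 3 and at 3.13 and 2.75 RPKM in the other two, against 10.51 to 19.00 RPKM in Con-FMT, and was not called (limma adjusted p = 0.714).

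The growth hormone and IGF axis list had 2 of 20 members called lower (10.0%) and 1 higher (5.0%), near the 8.94% and 4.85% of all genes. The called members were Igfbp1 and Socs2 (log2 difference -1.48), lower, and Stat5a (0.69), higher. Igfbp1, a binding protein of insulin-like growth factors that insulin represses, was at 5.38, 16.01 and 31.78 RPKM in A10-FMT and 92.30, 272.96 and 139.08 RPKM in Con-FMT. There was no overlap between the groups (log2 difference -3.33, SE 0.52, limma adjusted p = 0.00309, 9.49-fold). Irs2, the insulin receptor substrate that rises in fasting, was named by its small p and not as a list member. It was at 1.43, 1.58 and 1.52 RPKM against 7.06, 5.13 and 9.67 RPKM. It was even within A10-FMT and did not overlap (-1.69, SE 0.18, limma adjusted p = 0.000587). The receptor gene Insr, named after its values were seen, was at 0.02 (limma adjusted p = 0.914).

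In the gluconeogenesis list 4 of 13 members tested were called lower and 0 higher (median -0.22), and 2 to 4 with 1 library left out (2 without A10-FMT 1 or A10-FMT 2). Pck1, phosphoenolpyruvate carboxykinase, was at 632.34, 815.03 and 875.84 RPKM in A10-FMT and 1294.31, 1248.11 and 1159.21 RPKM in Con-FMT. The groups did not overlap (-0.68, SE 0.13, limma adjusted p = 0.00681). Got1, the cytosolic aspartate aminotransferase, was at -1.46 (limma adjusted p = 0.00971). Tat, tyrosine aminotransferase and a classical glucocorticoid target, was at -1.03 (limma adjusted p = 0.0156), with 0.057 without A10-FMT 1 and 0.0568 without A10-FMT 2. G6pc, the last step of glucose release, named after its values were seen, overlapped (0.08, limma adjusted p = 0.89). The separate glycolysis and glycogen list had 2 of 23 members called lower (8.7%, beside 8.94% of all genes) and 0 higher (median 0.01). With 1 library left out, 0 to 3 of its members were called. Its lowest member Pfkfb3, which makes the activator of glycolysis fructose 2,6-bisphosphate, was at -1.63 (limma adjusted p = 0.0145). Its adjusted p was 0.0515 without A10-FMT 1 and 0.0622 without A10-FMT 2.

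Fatty acid and triglyceride synthesis had 2 of 21 members called lower and 2 higher (median 0.26). Higher members numbered 1 without Con-FMT 3 and 5 under median scaling, and 5 members were called in all without Con-FMT 1. Lpin1, a phosphatidate phosphatase that also acts as a fasting coactivator, was at 10.50, 24.34 and 37.24 RPKM in A10-FMT and 114.12, 118.14 and 108.43 RPKM in Con-FMT. There was no overlap between the groups (log2 difference -2.36, SE 0.49, limma adjusted p = 0.0112). Its paralog Lpin2 was at -0.75 (limma adjusted p = 0.00309). Srebf1, the lipogenic transcription factor that insulin raises, was at 62.12, 48.83 and 78.99 RPKM against 22.72, 20.26 and 33.10 RPKM. It was higher in every A10-FMT library (1.29, SE 0.29, limma adjusted p = 0.0156), with 0.0511 without A10-FMT 3 and 0.051 without Con-FMT 2. Its targets Fasn (0.98, limma adjusted p = 0.343), Acaca (0.12, 0.835) and Scd1 (-0.05, 0.975), named after their values were seen, overlapped between the groups. Cholesterol synthesis genes had 0 of 25 called, while 23 of 25 log2 differences were above 0 (median 0.53, and 0.33 without Con-FMT 3, beside -0.03 over all genes). Only 7 of the 25 did not overlap between the groups, against 31.5% of all genes, and genes of this pathway are not independent of each other.

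The liver genes that the study followed as protein or named as lipid genes were not called in this comparison. Of 13 such genes 11 were tested and 0 passed. Cyp7a1, the rate-limiting enzyme of bile acid synthesis, was at 40.47, 34.81 and 37.43 RPKM in A10-FMT and at 38.68, 33.08 and 15.86 RPKM in Con-FMT, where Con-FMT 3 was the low library (log2 difference 0.44, SE 0.56, limma adjusted p = 0.653). Nr1h3, the oxysterol receptor LXR alpha, was at -0.06 (limma adjusted p = 0.671) and Nr1h4, the bile acid receptor FXR, at 0.27 (0.234). Rbp4, the retinol carrier of plasma, was at 0.11 (limma adjusted p = 0.641). Gpx1, a glutathione peroxidase, was at 0.02 (limma adjusted p = 0.921). The peroxisomal and mitochondrial beta-oxidation genes Acaa1a, Acaa2 and Acox2 lay between -0.17 and 0.07 (limma adjusted p = 0.468 to 0.869), and the reads of Acaa1a can be split with Acaa1b. Dhrs9, at up to 0.20 RPKM, and Bcl2, at 0.13 to 0.20 RPKM, were below the expression minimum. These measurements are of mRNA and do not bear on protein levels. A p that misses the threshold does not show that the groups were alike.

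The further lists given here had few or no members called, or counts that changed when 1 library was left out, and not every list is given. Apoptosis regulators had 1 higher and 3 lower of 19, and 2 to 4 in all with 1 library left out. Mitochondrial beta-oxidation and ketogenesis (0 of 22 called, median 0.06), PPAR alpha targets (0 of 22, 0.04) and oxidative phosphorylation (0 of 65) had no member called. Cytosolic ribosomal proteins had 1 of 77 called lower, and urea cycle and amino acid catabolism 4 of 46 lower, 2 of them without A10-FMT 1 or A10-FMT 2. Peroxisomal beta-oxidation had 3 of 22 called higher (13.6%), and 0 or 1 with any 1 library left out. Splicing factors had 3 higher and 4 lower of 26, 7 in all, and 3, 1 and 4 in all without A10-FMT 1, 2 and 3, and 1, 1 and 5 without Con-FMT 1, 2 and 3. Complement and coagulation had 1 higher and 4 lower of 29, and 0 in all without A10-FMT 2, 1 without Con-FMT 2, 2 without A10-FMT 3 and 3 without A10-FMT 1 or Con-FMT 3. Phase II conjugation had 4 higher and 1 lower of 40, and 0 in all without A10-FMT 2, 1 without Con-FMT 1 and 3 without A10-FMT 1, Con-FMT 2 or Con-FMT 3. Under an unadjusted threshold of 0.05, 2954 of all genes tested passed by limma, so a list with 0 calls is a statement about the adjusted test.

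The genes with the smallest p among the lower ones were not those of a single pathway. Eif1a, a translation initiation factor, was at 13.56, 14.13 and 13.54 RPKM in A10-FMT and 40.33, 35.04 and 40.40 RPKM in Con-FMT. Ptp4a1, a phosphatase of regenerating liver, was at 34.15, 34.85 and 39.90 RPKM against 97.15, 99.65 and 108.02 RPKM. Neither gene overlapped between the groups, and the log2 differences were -1.42 (limma adjusted p = 5.91e-05) and -1.46 (limma adjusted p = 8.51e-05). Zfp9 (-1.58), Tbc1d8 (-1.44), Nfxl1 (-1.18), Sdc4 (-0.91), C9orf72 (-0.87) and Zc3h7a (-0.85) complete the lower genes chosen by smallest p, beside Zbtb16, Fkbp5, Irs2, Ficd, Nop58 and Nol8.

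Nop58, a core protein of box C/D small nucleolar particles, and Nol8, a nucleolar protein, belong to ribosome biogenesis. Nop58 was at 10.50, 9.31 and 8.43 RPKM in A10-FMT and 22.39, 25.36 and 19.34 RPKM in Con-FMT. The groups did not overlap (log2 difference -1.16, limma adjusted p = 0.000214). In a list of ribosome biogenesis factors, added after values were seen, 30 of 70 tested were called lower and 0 higher (median -0.27), 26 without Con-FMT 3 and 21 to 33 with any 1 library left out. Hnf4a, the nuclear receptor that maintains hepatocyte identity, was lower as well, at 110.43 to 114.08 RPKM in A10-FMT and 177.39 to 197.01 RPKM in Con-FMT (-0.70, limma adjusted p = 0.00102). The 10 hepatocyte markers, Hnf4a among them, were not lower as a set. Of these 2 were called lower and 0 higher, and 5 had log2 differences above 0 (median -0.04). Hmox1, heme oxygenase, was at -1.43 (limma adjusted p = 0.00112).

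Among the genes higher in A10-FMT, Fgfr3, a fibroblast growth factor receptor on chromosome 5 (33721674 to 33737068), had the smallest p. It was at 9.46, 8.37 and 8.33 RPKM in A10-FMT and 4.50, 4.48 and 4.23 RPKM in Con-FMT. The spread within each group was small and the groups did not overlap (log2 difference 0.85, SE 0.07, limma adjusted p = 0.000167). Slc12a7, a potassium-chloride cotransporter, was at 18.09, 12.75 and 13.83 RPKM against 5.32, 5.60 and 6.30 RPKM. It did not overlap either (1.23, limma adjusted p = 0.000402). Bmf, a BH3-only protein that promotes apoptosis, was at 4.60, 4.43 and 4.12 RPKM against 0.35, 0.36 and 1.28 RPKM. Con-FMT 3 was the highest of its group for Bmf, and the gene was 6.61-fold higher in A10-FMT (1.74, SE 0.19, limma adjusted p = 0.000596). Slc2a5, the fructose transporter GLUT5, was at 0.86 (limma adjusted p = 0.000697). Eepd1 (1.25), Tmem131l (1.18), Fam107b (0.90), Fam20c (0.78), Plekhg6 (0.76), Kank2 (0.75), Phldb2 (0.65), Rnpep (0.65), Gpsm2 (0.65) and Sned1 (0.60) complete the 14 higher genes chosen by smallest p, and each stayed called without any 1 library.

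Cyp2a5 and Cyp2a12, of cytochrome P450 family 2, were further genes higher in A10-FMT. In families 1, 2 and 3 together 3 of 31 tested were called higher and 1 lower, with 2 and 2 without Con-FMT 3, and 1 in all without Con-FMT 1 and 2 in all without A10-FMT 2. Cyp2a5, which oxidises coumarin and nicotine, was at 197.41, 136.83 and 267.62 RPKM in A10-FMT and 17.73, 35.94 and 41.33 RPKM in Con-FMT. There was no overlap between the groups (log2 difference 2.66, SE 0.60, limma adjusted p = 0.0156), with 0.0541 without Con-FMT 1, and reads can be split with its near copy Cyp2a4. Cyp2a12 was at 1.79 (limma adjusted p = 0.0233), with 0.0639 without A10-FMT 1, 0.077 without A10-FMT 2, 0.0735 without Con-FMT 1 and 0.0689 without Con-FMT 3. Cyp2u1 was at 1.03 (limma adjusted p = 0.00315).

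Pericentral genes, expressed around the central vein under Wnt signalling, had 2 of 13 members called higher and 0 lower, and 3 and 4 called in all without A10-FMT 3 and Con-FMT 1. Axin2, a Wnt target and inhibitor, was at 1.22 to 2.17 RPKM in A10-FMT and 0.64 to 0.71 RPKM in Con-FMT (log2 difference 0.68, limma adjusted p = 0.00672). Tbx3, a transcription factor of pericentral hepatocytes, was at 4.37 to 9.40 RPKM against 2.99 to 3.32 RPKM (0.82, limma adjusted p = 0.0156). In the retinoid list 2 of 21 were called higher and 0 lower, and 0 were called without A10-FMT 1 and 1 without A10-FMT 2 or Con-FMT 1. Rara, the retinoic acid receptor alpha, was at 0.58 (limma adjusted p = 0.0156) and 0.0548 without A10-FMT 1. Bco2, which cleaves carotenoids, was at 0.98 (limma adjusted p = 0.0342), with 0.0827 without A10-FMT 1, 0.126 without A10-FMT 2, 0.083 without Con-FMT 1 and 0.103 without Con-FMT 3.

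The untransplanted groups give a level to set beside each recipient group. They do not settle which recipient group changed, because clock genes also differed between HS and both recipient groups, as given below. Con mice had a regular diet and no STZ, HS mice had HS treatment without donor content, and each group has 3 libraries. The comparisons of A10-FMT and of Con-FMT with HS share the HS libraries, so each is given by its own values and calls, set side by side. Mt2 was at 11.22 to 20.16 RPKM in HS, close to the A10-FMT values, and at 23.35 to 311.46 RPKM in Con. Its log2 difference from HS was 0.19 in A10-FMT (limma adjusted p = 0.87) and 6.11 in Con-FMT (limma adjusted p = 0.00065). Zbtb16 was at 0.96 to 1.48 RPKM and Fkbp5 at 4.71 to 5.85 RPKM in HS, also near A10-FMT. Lpin1 was at 3.11 to 17.41 RPKM in HS, and its difference from HS was 3.75 in Con-FMT (limma adjusted p = 0.001) and 1.39 in A10-FMT (limma adjusted p = 0.073). For Mt2 and Lpin1 the difference from HS was the larger one in Con-FMT.

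For the ER list the medians of the recipient groups lay on opposite sides of HS. The 25 members had a median log2 difference from HS of 0.41 in Con-FMT, with 8 called higher and 0 lower, and of -0.62 in A10-FMT, with 1 higher and 17 lower. Over all genes tested the medians were -0.11 and -0.16. Con-FMT was called above HS in 3.68% of all genes and below it in 14.5%, and A10-FMT above HS in 1.71% and below it in 14.7%. Hspa5 was at 232.04 to 499.40 RPKM in HS, below every Con-FMT library and above 2 of the 3 A10-FMT libraries. Cdkn1a was at 19.75 to 34.90 RPKM in HS, near Con-FMT, and its difference from HS was -2.69 in A10-FMT (limma adjusted p = 0.00094) and -0.53 in Con-FMT (limma adjusted p = 0.2). Slc12a7 was at 12.38 to 13.24 RPKM in HS, near A10-FMT, and Fgfr3 at 6.73 to 7.31 RPKM, between the recipient groups. Bmf was at 0.35 to 0.56 RPKM in HS, near Con-FMT.

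Clock genes differed between the recipients and HS, which touches every comparison with HS. In the circadian list of 20 members, A10-FMT was above HS in 9 called genes and below it in 5, and Con-FMT was above HS in 10 and below it in 3, beside the shares of all genes given for the ER list. Dbp, a clock output gene named after its values were seen, was at 0.58 to 0.68 RPKM in Con and 1.17 to 2.22 RPKM in HS. It was at 98.80, 48.80 and 86.16 RPKM in A10-FMT and 51.84, 55.47 and 52.99 RPKM in Con-FMT. Between the recipient groups 1 clock gene was called higher, Hlf (log2 difference 0.81, limma adjusted p = 0.00667), and 1 lower, Nfil3 (-1.47, limma adjusted p = 0.0113), and 3 were called higher without Con-FMT 3. The part of the clock genes in the other results was not tested.

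AOS itself was also given to mice of the same model, by a route the labels do not give, and that comparison shares no library with the recipients. HS+A10 mice received HS treatment and AOS at 10 mg per kg, and A10 mice received AOS without HS treatment, with 3 libraries each. In HS+A10 against HS 747 of 10204 genes (7.32%) were called, and in A10 against Con 7 (0.0686%). Of the 493 genes higher in A10-FMT, 360 (73.0%) had a log2 difference above 0 in HS+A10 against HS, where 42.9% of all genes were above 0. Of 906 lower genes also tested there, 776 (85.7%) were below 0, where 57.1% of all genes were below 0. Called in the same direction were 53 and 210 of these genes, and in the opposite direction 4 and 9. Without Con-FMT 3 the shares were 75.3% and 85%, and under median scaling they were 78.3% and 81.0%, beside 50.9% and 49.1% of all genes. In A10 against Con the shares were 77.7% (all genes 67.7%) and 56.0% (all genes 32.2%).

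The ER list was lower in this comparison as well, while metallothioneins were not. In HS+A10 against HS 15 of 25 ER members were called lower and 0 higher (median -0.68). Called lower were also 6 of the heat shock list (median -0.75) and 5 of the acute-phase list (median -0.61). Over all genes the median was -0.03, and 4.37% were called lower and 2.95% higher. Hspa5 was at -1.42 (limma adjusted p = 0.0095) and Creld2 at -1.85 (limma adjusted p = 0.0075). Herpud1 was at 0.18 (limma adjusted p = 0.65). Bmf was higher, at 1.20 (limma adjusted p = 0.0038). Mt2 was at 1.25 (limma adjusted p = 0.41), Zbtb16 at -0.42 (0.12) and Fkbp5 at 0.36 (0.18). The p53 and glucocorticoid lists had medians of -0.10 and -0.08. The clock list differed here too, with 9 of 20 members called higher and 5 lower in HS+A10 than in HS, and Dbp at 47.26 to 97.45 RPKM in HS+A10.

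**Figure D5:**
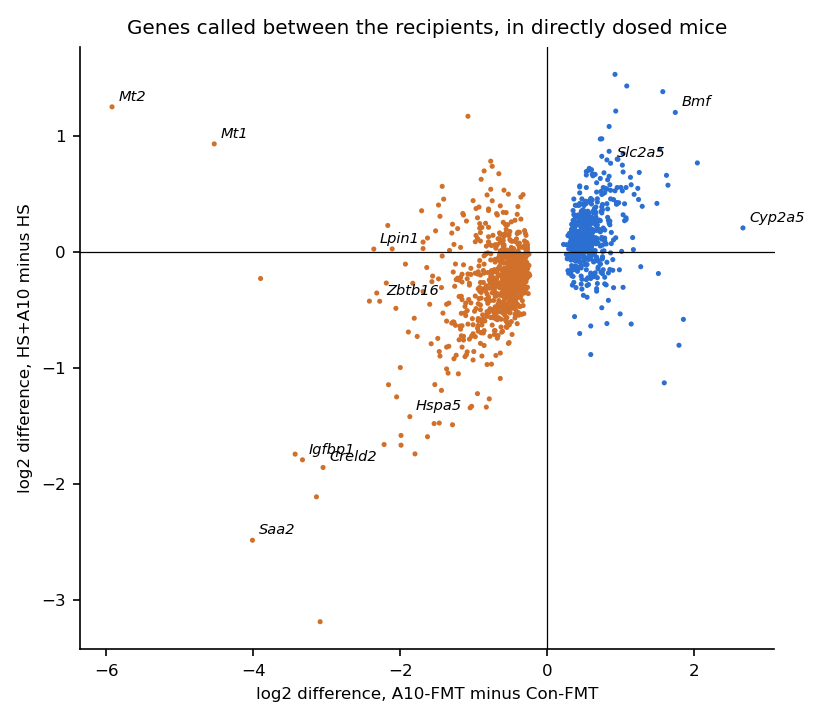
Log2 difference of HS+A10 minus HS (y) against that of A10-FMT minus Con-FMT (x) for the genes called between the recipient groups, 1 point a gene, both on the log2(RPKM + 1) scale. Hspa5 and Creld2 lie in the lower left, Bmf in the upper right, while Mt2 and Mt1 lie far to the left and above 0 on the y axis.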

How the data were processed

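Messenger RNA, enriched by its poly(A) tail from total RNA of liver, was sequenced, with 3 libraries in each of 6 groups. The authors deposited 1 table of RPKM values with 2 decimals for 19057 gene symbols. The submitters' processing notes name Bowtie 0.12.2 and mm10, and the methods of the study name SOAPaligner 2.20. Per the labels, strand of the reads is not stated. The table holds no counts, so no count model or counting interval was used. Relative depth, estimated from the step between low values of 52 genes, was 0.965 to 1.04 over the 18 libraries.

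Log2(RPKM + 1) of the Con, HS, Con-FMT and A10-FMT libraries was fitted with limma 3.58.1 (R 4.3.3), 1 mean per group, 8 residual degrees of freedom and a variance trend. The test covered 10159 genes that averaged 1 RPKM or more over these 12 libraries, and left out 8898. P-values were adjusted by Benjamini-Hochberg over all genes tested and called under 0.05. Direct dosing was fitted over all 18 libraries. The fit was tested on simulated data. Gene positions are of GRCm38 (GENCODE vM21) and promoter windows of RefSeq GRCm38.p6.

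Named genes were the 14 higher and 14 lower with the smallest p among non-overlapping called genes, up to 3 called members of each list by size, the study's 13 genes and called markers. Members and lists were chosen with earlier results of these data known. Of the symbols, 26 had turned into dates and 3 occurred more than once. Some genes of these lists are not reported here by name.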

Additional observations from a re-analysis of the deposited data

How the results depend on the processing

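The count of 1401 called genes stayed within 1.5 times under pseudocount 0.1, no filter, the mean over the 6 libraries compared, quantile, median and sum scaling, all 18 libraries, no variance trend and median scaling without Con-FMT 3. It was 933 with a mean of at least 5 RPKM, where fewer genes were tested, 687 with only the 6 libraries in the fit, 2532 with array weights, and 19 at the study's threshold (adjusted p of at most 0.001 and a log2 difference of at least 1). The cause of the array weight count was not tested, and the weight fit did not converge fully. Higher genes numbered 266, 235, 888 and 3 in these fits, and 876 with quantile normalization, 936 with median scaling, 208 with sum scaling and 804 with median scaling without Con-FMT 3. Lower genes numbered 452 with only the 6 libraries, 1644 with array weights and 16 at the study's threshold. Leaving out 1 library gave 608 to 1153 calls, 224 to 475 higher and 384 to 709 lower, with 1 arm then resting on 2 libraries. Under median scaling the shares of same sign were 78.3% and 81.0% in HS+A10 against HS and 63.3% and 74.1% in A10 against Con.

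With the replicate number as a replicate block 1124 genes were called, 383 higher and 741 lower, 1080 of them among the 1401. The numbers share no recorded animal or batch, and the correlations of same-numbered libraries' deviations were 0.009, 0.005 and -0.009, so they were not taken as pairs. Without the Con group 996 genes were called. This alternative was chosen after seeing the data, because Con 3 lay between the other Con libraries for 56.7% of genes. Of 103 called genes chosen by the rule 56 kept call and sign under all 20 alternatives, and 0 reversed. RPKM keeps no counts, so no limit of detection was set for single genes.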
